A study of Homo sapiens with 6 samples.

Results

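The nascent RNA of 9 genes that make glutathione, keep it reduced or supply the NADPH for that reduction was followed in HCT116 cells, a human colorectal carcinoma line. The genes were GCLC, GCLM, GSS, GSR, PGD, TKT, TALDO1, ME1 and IDH1. They are known members of these pathways and were chosen with earlier results of these data known. By gene symbol, they were taken from the 22984 gene rows counted on the sense strand. All 9 were found in all 6 libraries. RNA was measured by Bru-seq, in which bromouridine given for the last 0.5 h marks newly made transcripts, so that the values reflect recent transcription rather than the whole mRNA pool. The study asked which transcripts respond to loss or inhibition of glutathione S-transferase omega 1 (GSTO1). The control group was 2 cultures given 0.01% DMSO for 4 h (DMSO cultures 1 and 2). Each treatment was a single library: 10 nM siRNA against GSTO1 for 24 h (siGSTO1), the GSTO1 inhibitor C1-27 at 1 μM for 4 h, C1-27 at 1 μM for 24 h, and C1-14, described in the study as an inactive analogue, at 10 μM for 4 h. No 24 h DMSO library and no library with a non-targeting siRNA were analysed here, so in the 24 h groups the agent cannot be told apart from time in culture or, for siGSTO1, from transfection.

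Glutathione is a tripeptide made in 2 ATP-dependent steps. Glutamate-cysteine ligase joins glutamate to cysteine, and it consists of a catalytic subunit (GCLC) and a modifier subunit (GCLM) that makes the enzyme more efficient. Glutathione synthetase (GSS) then adds glycine. Oxidised glutathione is returned to its reduced form by glutathione reductase (GSR), which spends NADPH. In the cytosol that NADPH comes from the pentose phosphate pathway, here 6-phosphogluconate dehydrogenase (PGD) with transketolase (TKT) and transaldolase (TALDO1) in the branch that returns sugars to glycolysis, and from malic enzyme 1 (ME1) and isocitrate dehydrogenase 1 (IDH1). Several of these genes are known targets of NRF2, a transcription factor that binds antioxidant response elements.

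The promoters of the 9 genes were searched for the core of that element, written TGACNNNGC, or GCNNNGTCA where it lies on the other strand. Promoter windows were those of RefSeq on GRCh38.p14, from 250 bases before to 50 bases after a gene's start, and 7 of the 9 genes had an entry in 8 windows. GSS and GSR had none. A match on either strand was found for 4 of these 7 genes (GCLM, ME1, IDH1 and PGD), with IDH1 counted if either of its 2 windows matched. Counted by window rather than by gene, 13.3% of all 35116 windows held one. The GCLM match began 34 bases before the start, that of ME1 137 bases before, that of IDH1 143 bases before and that of PGD 201 bases before. ME1 had a further match 12 bases after its start, and the 2 IDH1 windows differed, since only the one shown held a match. A match is a string of letters and does not show binding. The lack of a match covers only the bases of the window and does not show that a gene has no such element elsewhere. The 250 bases before the start are given for GCLM, ME1 and IDH1, which held a match and whose levels the results below turn on, and for GCLC, the partner of GCLM, whose window held none. They run 5′ to 3′ on the minus strand of chr1:93909431-93909680 (GCLM), chr6:83431052-83431301 (ME1), chr2:208255072-208255321 (IDH1) and chr6:53545102-53545351 (GCLC), with the matched core in capitals.
GCLM: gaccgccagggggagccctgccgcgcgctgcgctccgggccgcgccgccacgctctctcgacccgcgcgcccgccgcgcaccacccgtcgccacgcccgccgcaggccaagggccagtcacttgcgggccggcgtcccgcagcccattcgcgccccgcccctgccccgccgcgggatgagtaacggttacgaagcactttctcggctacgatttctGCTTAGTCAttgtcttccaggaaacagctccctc
ME1: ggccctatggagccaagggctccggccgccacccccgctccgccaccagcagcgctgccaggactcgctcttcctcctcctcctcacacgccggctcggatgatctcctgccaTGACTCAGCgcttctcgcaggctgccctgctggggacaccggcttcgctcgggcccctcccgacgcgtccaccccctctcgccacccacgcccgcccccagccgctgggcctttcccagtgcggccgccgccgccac
IDH1: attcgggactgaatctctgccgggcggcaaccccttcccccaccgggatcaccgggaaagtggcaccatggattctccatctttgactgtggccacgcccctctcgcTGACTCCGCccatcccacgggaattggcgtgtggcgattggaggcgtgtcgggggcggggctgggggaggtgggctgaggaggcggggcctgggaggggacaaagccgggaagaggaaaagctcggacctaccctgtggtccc
GCLC: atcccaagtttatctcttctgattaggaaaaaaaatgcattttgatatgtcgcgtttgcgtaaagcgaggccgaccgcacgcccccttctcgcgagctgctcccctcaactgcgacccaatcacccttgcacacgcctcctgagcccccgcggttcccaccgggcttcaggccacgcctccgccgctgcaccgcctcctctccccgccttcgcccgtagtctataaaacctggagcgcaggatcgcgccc

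The libraries held 18112861 to 36841146 sense counts in genes, with the fewest in DMSO culture 1 and the most in C1-27 at 24 h, and 2.85% to 3.96% of gene counts lay on the antisense strand. Of 9 colorectal epithelium markers, EPCAM, KRT8, KRT18 and KRT19 exceeded 0.5 RPKM (reads scaled to gene length and library size) in all libraries, whereas CDX1, CDX2, LGALS4 and VIL1 were at or below it in all of them. None of 11 markers of fibroblasts, leukocytes and endothelium exceeded 0.5 RPKM in any library. GSTO1 itself was at 3.51 and 3.72 RPKM in DMSO and at 2.70 RPKM after siGSTO1, a log2 difference of -0.54 ± 0.27 (SE) that did not pass the test (adjusted p = 0.314). An siRNA acts on the finished transcript, so nascent RNA checks this knockdown only in part.

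In DMSO the 9 genes spanned a wide range of levels per length. The mean RPKM (± SD, n = 2) was 2.88 ± 0.411 for TKT, 2.42 ± 0.363 for GSR, 2.32 ± 0.0757 for GCLM and 2.15 ± 0.25 for GCLC. It was 1.35 ± 0.234 for PGD, 1.21 ± 0.0691 for ME1, 0.968 ± 0.245 for GSS, 0.965 ± 0.295 for TALDO1 and 0.336 ± 0.0387 for IDH1. Both cultures separated GCLC from PGD, ME1 from GSS and TALDO1 from IDH1, and all other neighbours in this order overlapped. The cultures themselves differed: 7 of the 9 genes were lower in culture 2, with ratios of culture 2 to culture 1 from 0.644 (TALDO1) to 1.08 (ME1). TALDO1 and GSS, with a ratio of 0.697 for GSS, were at least 1.4-fold lower in culture 2, a size of difference that 16.3% of all genes reached in that direction and 2.84% in the other.

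**Figure D1:**
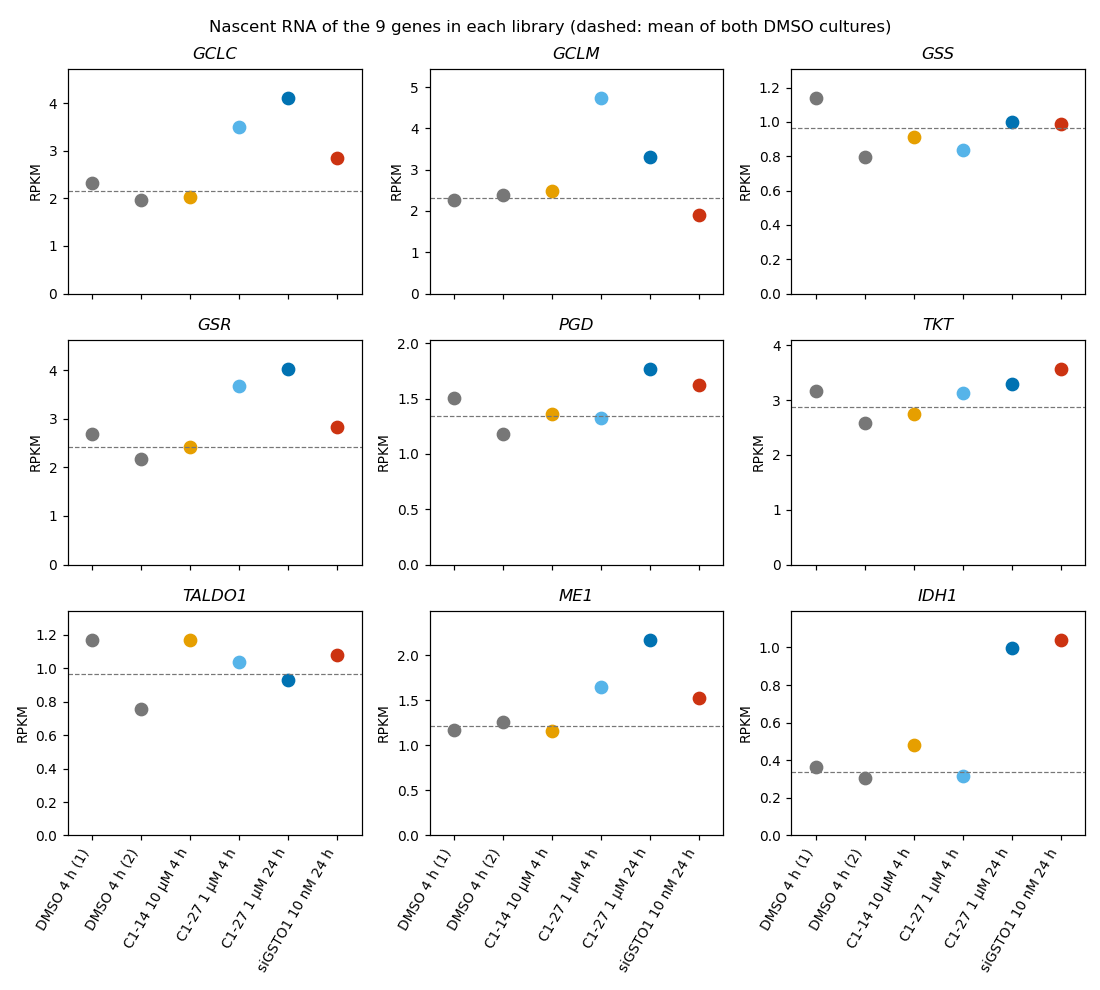
RPKM (y axis, from 0) of each of the 9 genes in each of the 6 libraries (x axis), 1 point a library, with a dashed line at the mean of both DMSO cultures. GCLM is highest in C1-27 at 4 h (4.74 RPKM), GCLC, GSR and ME1 are highest in C1-27 at 24 h, and IDH1 is near 1 RPKM in both 24 h libraries.

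The 2 subunits of glutamate-cysteine ligase were both at higher levels in both C1-27 libraries than in DMSO, and none of these differences passed the test. GCLM, on the minus strand at chr1:94352590-94375012 (hg19), was at 2.27 and 2.38 RPKM in DMSO, 4.74 with C1-27 at 4 h, 3.31 with C1-27 at 24 h, 1.90 with siGSTO1 and 2.48 with C1-14. Both C1-27 libraries lay above both DMSO cultures, and siGSTO1 lay below both. In bulk RNA such as this, fewer cells making a transcript and less RNA made per cell cannot be told apart. The level with C1-27 at 4 h was 2.04 times the DMSO mean (2.09 and 1.99 times cultures 1 and 2). Its log2 fold change was 1.05 ± 0.24 (SE) with an adjusted p of 0.0504 by edgeR's quasi-likelihood test, just short of the 0.05 threshold; across 7 settings of the count analysis the adjusted p ranged from 0.0366 to 1. At 24 h the ratio was 1.43 and the log2 fold change 0.46 ± 0.25 (adjusted p = 1), and with siGSTO1 they were 0.819 and -0.40 ± 0.26 (adjusted p = 0.498).

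GCLC, on the minus strand at chr6:53362140-53409927 (hg19), was at 2.32 and 1.97 RPKM in DMSO, 3.50 with C1-27 at 4 h, 4.11 with C1-27 at 24 h, 2.84 with siGSTO1 and 2.03 with C1-14. All 3 libraries in which GSTO1 was targeted lay above both DMSO cultures, and C1-14 lay between them. The ratio to the DMSO mean was 1.63 with C1-27 at 4 h (log2 fold change 0.74 ± 0.24, adjusted p = 1) and 1.92 at 24 h (0.89 ± 0.24, adjusted p = 0.0543). The 24 h difference missed the threshold with an adjusted p that ranged from 0.00374 to 0.478 over 7 settings. With siGSTO1 the ratio was 1.32 and the log2 fold change 0.295 ± 0.245 (adjusted p = 0.655).

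Both subunits are read in the same library, so library size cancels in their ratio. GCLC RPKM over GCLM RPKM was 1.02 and 0.828 in DMSO, 0.739 with C1-27 at 4 h, 1.24 with C1-27 at 24 h, 1.49 with siGSTO1 and 0.819 with C1-14. The 95% Clopper-Pearson intervals, which cover counting error only, were 0.955 to 1.1 and 0.785 to 0.873 for the DMSO cultures, 0.71 to 0.768 for C1-27 at 4 h, 1.19 to 1.29 for 24 h of C1-27, 1.39 to 1.6 for siGSTO1 and 0.774 to 0.866 for C1-14. The ratio was below both DMSO cultures with C1-27 at 4 h and, by less, with C1-14, whose interval overlapped that of DMSO culture 2. It was above both in each 24 h library. The DMSO cultures differed from each other by more than counting error, so these intervals understate the spread between cultures.

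**Figure D2:**
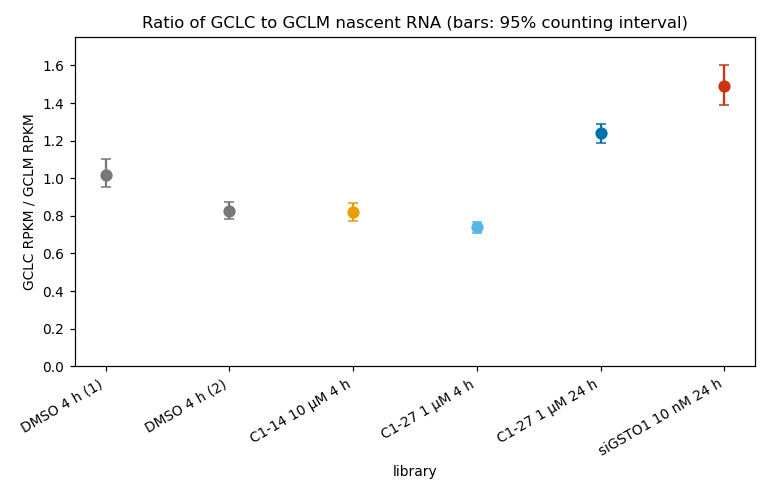
Ratio of GCLC RPKM to GCLM RPKM (y axis, from 0) in each of the 6 libraries (x axis), with 95% Clopper-Pearson intervals for counting error. The ratio is lowest with C1-27 at 4 h (0.739) and highest with siGSTO1 (1.49).

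GSS, the enzyme of the second synthesis step, on the minus strand at chr20:33516236-33543601 (hg19), was at 1.14 and 0.795 RPKM in DMSO and between 0.836 and 1.00 in the 4 treated libraries, all inside the range of the DMSO cultures. Its log2 fold changes against DMSO lay between -0.17 ± 0.29 (C1-27 at 4 h) and 0.01 ± 0.29 (C1-27 at 24 h), none past the test.

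GSR, which recycles oxidised glutathione and lies on the minus strand of chromosome 8, was at 2.68 and 2.17 RPKM in DMSO, 3.67 with C1-27 at 4 h, 4.03 with C1-27 at 24 h, 2.84 with siGSTO1 and 2.42 with C1-14. Both C1-27 libraries were above both DMSO cultures by more than the cultures differed from each other. The ratios were 1.52 at 4 h (1.37 and 1.70 against cultures 1 and 2) and 1.66 at 24 h (1.5 and 1.86). The log2 fold changes of 0.63 ± 0.24 and 0.68 ± 0.24 did not pass the test (adjusted p = 1 and 0.437).

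Of the pentose phosphate genes, PGD, on the plus strand at chr1:10459085-10480201 (hg19), ranged from 1.18 to 1.77 RPKM and was highest with C1-27 at 24 h, at 1.32 times the DMSO mean (log2 fold change 0.35 ± 0.27, adjusted p = 1). TKT, on the minus strand at chr3:53258723-53290130 (hg19), ranged from 2.59 to 3.57 RPKM and was highest with siGSTO1, at 1.24 times the DMSO mean. TALDO1, on the plus strand at chr11:747432-765024 (hg19), ranged from 0.756 to 1.17 RPKM. DMSO culture 2 was lowest and C1-14 highest, and DMSO culture 1 was also at 1.17 after rounding. None of the 3 passed the test in any of the 4 comparisons with DMSO.

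ME1, which oxidises malate to pyruvate and lies on the minus strand at chr6:83920110-84140938 (hg19), was at 1.17 and 1.26 RPKM in DMSO, 1.65 with C1-27 at 4 h, 2.17 with C1-27 at 24 h, 1.53 with siGSTO1 and 1.16 with C1-14. All libraries in which GSTO1 was targeted lay above both DMSO cultures, which were close to each other. The ratio to the DMSO mean was 1.78 with C1-27 at 24 h (1.86 and 1.72 against cultures 1 and 2), with a log2 fold change of 0.78 ± 0.26 (adjusted p = 0.341). At 4 h it was 1.36, and with siGSTO1 it was 1.26.

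IDH1, which makes NADPH from isocitrate in the cytosol and peroxisomes, rose in both 24 h libraries. It lies on the minus strand at chr2:209100953-209119806 (hg19) and was the lowest of the 9 genes in DMSO, at 0.363 and 0.308 RPKM (160 and 237 counts). It was at 1.04 RPKM with siGSTO1 (514 counts), 0.999 with C1-27 at 24 h (867 counts), 0.317 with C1-27 at 4 h (231 counts) and 0.482 with C1-14 (315 counts). The 24 h libraries lay far above both DMSO cultures, and C1-27 at 4 h lay between them. C1-14 also lay above both, at 1.44 times the DMSO mean (1.33 and 1.56 times cultures 1 and 2), with a log2 fold change of 0.55 ± 0.39 (adjusted p = 1). The ratio to the DMSO mean was 3.09 with siGSTO1 and 2.98 with C1-27 at 24 h. The log2 fold changes were 1.53 ± 0.37 (adjusted p = 0.00185) and 1.53 ± 0.36 (adjusted p = 0.00952), both past the test. Over 7 settings the adjusted p ranged from 0.000424 to 0.0262 for siGSTO1 and from 0.00166 to 0.161 for C1-27 at 24 h, where the DESeq2 Wald test gave the 0.161.

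**Figure D3:**
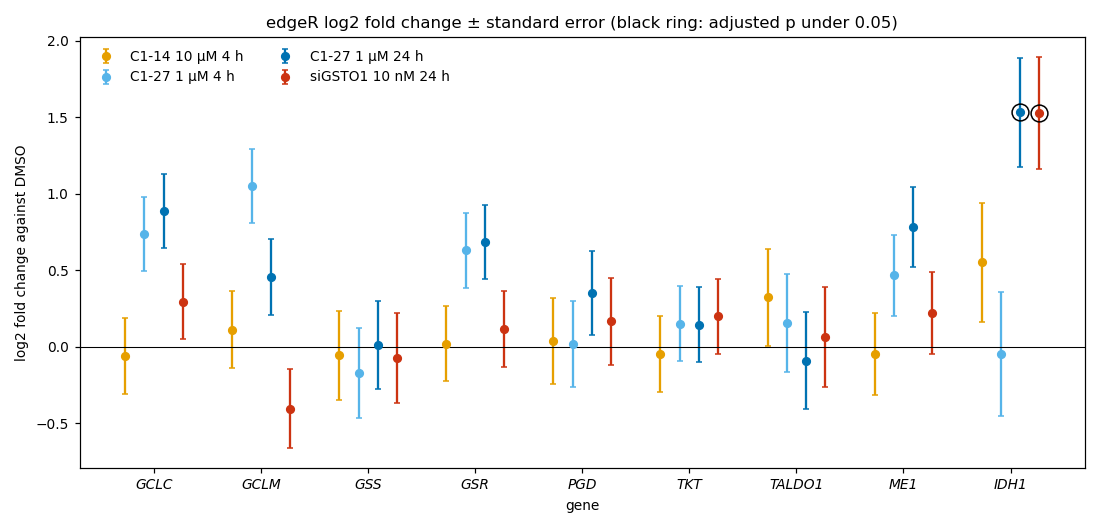
edgeR log2 fold change against both DMSO cultures (y axis) with its standard error (bars) for each of the 9 genes (x axis) in the 4 treated libraries (colours). Black rings mark an adjusted p under 0.05, which IDH1 has with siGSTO1 and with C1-27 at 24 h (1.53 in each).

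The members that were 1.4-fold higher or lower were counted against all genes. The members were chosen with earlier results of these data known. The study's own lists of top genes raised by C1-27 held GCLM, GCLC and GSR at 4 h and IDH1 at 24 h. These counts and those by edgeR below therefore describe the members and do not test them as a set. With C1-27 at 4 h, 3 of the 8 members that passed the RPKM filter (gene over 300 bp and mean of treated and control RPKM over 0.5) were at least 1.4-fold higher, namely GCLM, GCLC and GSR, and none was 1.4-fold lower. The background was 0.457% of 7667 genes higher and 2.22% lower. IDH1 did not pass that filter. With C1-27 at 24 h, 5 of 9 (IDH1, GCLC, ME1, GSR and GCLM) were at least 1.4-fold higher and none lower, against 3.23% higher and 3.49% lower among 7918 genes. With siGSTO1, 1 of 9 (IDH1) was higher and none lower, against 10.5% and 6.48% of 8138 genes. When DMSO culture 1 was left out, GCLC and TALDO1 joined it and the count was 3. With C1-14, none of the 8 that passed was 1.4-fold higher or lower, against 3.71% and 1.01% of 7784 genes, and TALDO1 was 1.55-fold higher when DMSO culture 1 was left out.

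By edgeR, siGSTO1 had a background of 4.91% of 14431 genes past the test in either direction. The background was 0.0208% and 0.36% after C1-27 (4 and 24 h) and 0.139% after C1-14. Of the 9 members, 1 passed with siGSTO1, 0 with C1-27 at 4 h, 1 with C1-27 at 24 h and 0 with C1-14. At an unadjusted p under 0.05 the members were 1, 3, 4 and 0 of 9 in that order, beside 15.2%, 0.797%, 4.28% and 1.61% of all genes tested, so that 1 of 9 with siGSTO1 was no more than the background. DESeq2's Wald test called 1, 0, 0 and 0. The median log2 fold change over the 9 members was 0.17 with siGSTO1, 0.16 with C1-27 at 4 h, 0.46 with C1-27 at 24 h and 0.02 with C1-14, beside 0.02, -0.02, 0.00 and 0.00 over all genes tested. The members' median depended on the DMSO culture used, though little with C1-27 at 24 h. Without culture 1 and without culture 2 in turn, it was 0.32 and 0.02 with siGSTO1, 0.385 and 0.04 with C1-27 at 4 h, 0.50 and 0.52 with C1-27 at 24 h, and 0.15 and -0.10 with C1-14.

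**Figure D4:**
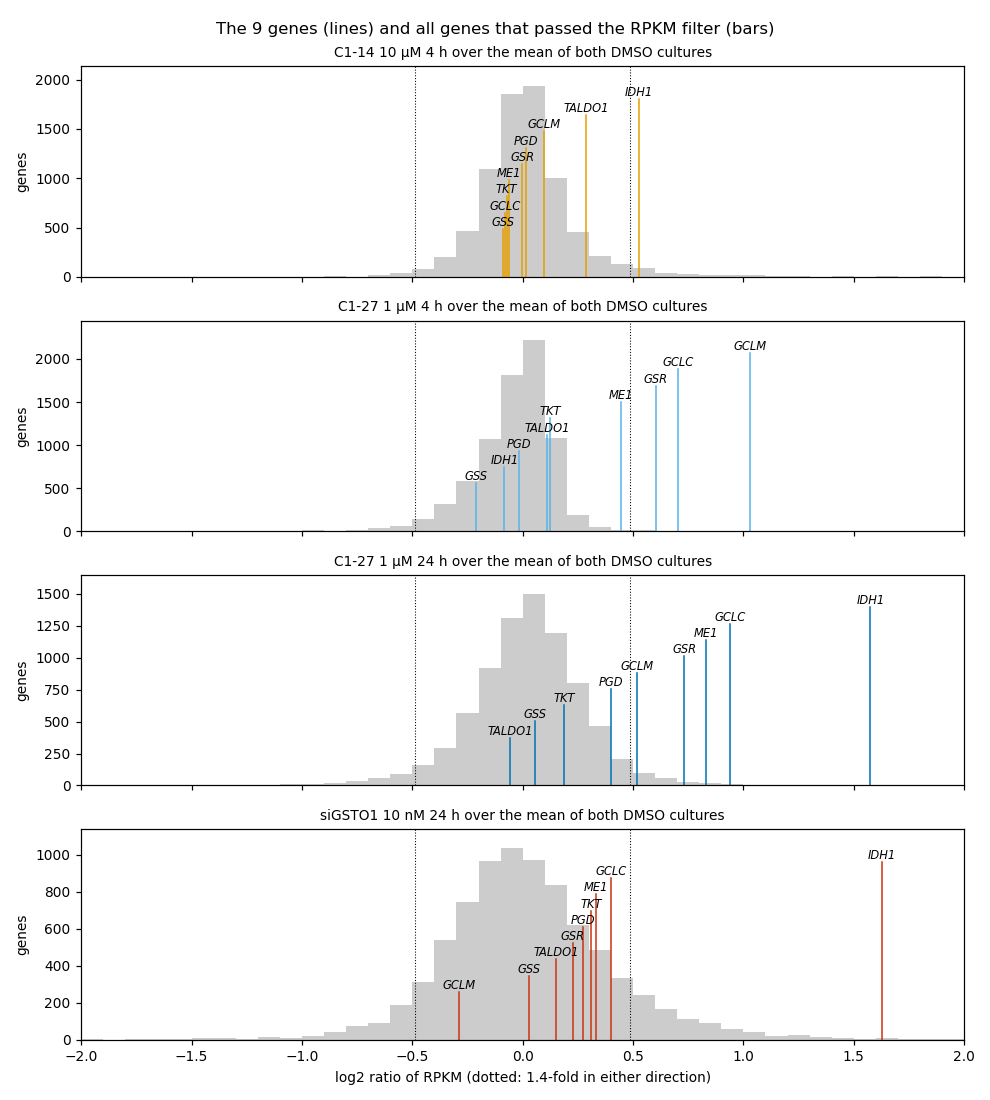
Log2 ratio of RPKM in each treated library to the mean of both DMSO cultures (x axis): grey bars count all genes that passed the RPKM filter (y axis), coloured lines mark the 9 genes at heights set only for legibility, and dotted lines mark 1.4-fold. Ratios beyond the axis (1 to 20 genes a panel) are not drawn, and IDH1, drawn for both 4 h treatments, did not pass the filter there. GCLM, GCLC and GSR lie beyond 1.4-fold with C1-27 at 4 h.

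The time course of C1-27 was compared directly between its 24 h and 4 h libraries. IDH1 was 3.15 times higher at 24 h (0.317 and 0.999 RPKM at 4 and 24 h), with a log2 fold change of 1.58 ± 0.43 and an adjusted p of 0.131. GCLM was at 0.699 times its 4 h level, with a log2 fold change of -0.60 ± 0.29 (adjusted p = 1). None of the 9 members passed by edgeR, against a background of 0.125% of genes in either direction. An unadjusted p under 0.05 was found for 2 of 9, beside 2.9% of all genes tested. DESeq2's Wald test likewise called none.

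The siRNA and the compound at 24 h were compared in the same way. Relative to C1-27 at 24 h, the siGSTO1 ratio was 0.575 for GCLM, 0.691 for GCLC, 0.704 for GSR and 0.707 for ME1. Their log2 fold changes were -0.86 ± 0.29, -0.594 ± 0.285, -0.57 ± 0.29 and -0.56 ± 0.31, with adjusted p of 0.144, 0.554, 0.613 and 0.722. For IDH1 the ratio was 1.04, with a log2 fold change of -0.005 ± 0.403. None of the 9 members passed by edgeR, against a background of 1.43%. An unadjusted p under 0.05 was found for 3 of 9, beside 8.06% of all genes tested, and DESeq2's Wald test called none.

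C1-27 at 1 μM and C1-14 at 10 μM were both given for 4 h, but at different doses, so their values stand side by side and the compounds were not tested against each other. The ratio to the DMSO mean was 2.04 and 1.07 for GCLM, 1.63 and 0.946 for GCLC, 1.52 and 0.999 for GSR, 1.36 and 0.957 for ME1, and 1.09 and 0.951 for TKT, with C1-27 first in each pair. In the other 4 genes the C1-14 value was the larger: 0.944 and 1.44 for IDH1, 1.08 and 1.22 for TALDO1, 0.864 and 0.94 for GSS, and 0.99 and 1.01 for PGD. These comparisons share their DMSO cultures.

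Other genes of the pathway were taken from 6 lists with 81 genes in all, of which 70 were tested. With siGSTO1, 5 of these (7.14%) passed higher and none lower by edgeR, near the 4.91% of all genes that passed in either direction, so the count by itself sets the lists apart from no other genes. CHAC1, which breaks glutathione down, was at 0.0832 and 0.0477 RPKM in DMSO and 1.97 with siGSTO1 (log2 fold change 4.88, adjusted p = 1.25e-11). SLC7A11, the cystine importer that feeds glutathione synthesis, was at 0.562 and 0.54 RPKM in DMSO, 3.62 with siGSTO1, 1.19 with C1-27 at 4 h, 1.78 with C1-27 at 24 h and 0.603 with C1-14. It rose in all 3 libraries in which GSTO1 was targeted (log2 fold change 2.60, 1.14 and 1.64, adjusted p = 7.46e-24, 0.0105 and 1.97e-08), and was the only one of the 70 to pass with C1-27 at either time. The other 3 were SLC1A4 (log2 fold change 2.02), SESN2 (1.93) and SESN3 (1.69), all with siGSTO1. Some of these levels were low: SLC1A4 and SESN3 were highest with siGSTO1, at 0.185 and 0.31 RPKM, below the 0.5 RPKM of the filter. CHAC1 rested on 6 counts in each DMSO culture and 160 with siGSTO1. With C1-27 at 24 h CHAC1 had 31 counts and was 3.34 times the DMSO mean (log2 fold change 1.77 ± 0.91). None of 70 passed with C1-14. At an unadjusted p under 0.05 the listed genes were 14 with siGSTO1 (20%, beside 15.2% of all genes), 3 and 6 with C1-27 at 4 and 24 h (4.29% and 8.57%, beside 0.797% and 4.28%) and 2 with C1-14 (2.86%, beside 1.61%). DESeq2's Wald test called 4, 0, 1 and 0, so that the SLC7A11 call at 4 h was lost. None of the 11 regulators of the NRF2 pathway passed in any comparison with DMSO, and 1 had an unadjusted p under 0.05, with C1-27 at 24 h. The remaining lists, on glutathione-using enzymes (14 tested) and on other NADPH supply (15 tested), had none that passed.

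The members did not share one pattern over the 6 libraries. The Euclidean distance of each to the mean pattern of the 9, on log2 RPKM centred on the mean of the libraries, ran from 0.281 (PGD) to 1.44 (IDH1), with GCLM at 0.993. Of 7901 eligible genes outside the 9, 28 lay nearer than PGD and 1386 lay nearer than the median member. The nearest were FECH (0.117), which makes haem, FAM158A (0.159), ALDH3A2 (0.187), which oxidises fatty aldehydes, ZKSCAN2 (0.197) and ARHGAP35 (0.216). All 6 libraries enter this distance, including the DMSO cultures, and the members themselves form the mean pattern they are measured against.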

How the data were processed

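HCT116 cells were profiled by Bru-seq in 6 libraries, grouped by their titles. Per the labels, the authors' tools included CASAVA 1.8.2, Bowtie 0.12.8, TopHat 1.4.1 and bedtools 2.16.2, with hg19; the counting program and annotation were not given in the sources used here. The deposited tables hold estimated counts per gene and strand (not all whole), a per-base coverage signal and RPKM. Counts were rounded. Genes longer than 300 bp that reached 10 counts in 2 or more libraries (14431) were tested with edgeR 4.0.16 in R 4.3.3 (quasi-likelihood, legacy=FALSE, TMM, Benjamini-Hochberg adjustment over all genes, adjusted p under 0.05). That choice over the older fit, and the use of the deposited size column rather than end minus start as gene length in the size filter, were made after the data were seen. With 1 library per treatment, the spread comes from both DMSO cultures (1 residual degree of freedom); treated libraries are assumed to vary like them, and p-values measure only the spread between these samples. RPKM ratios used no pseudocount and no TMM scaling, so a ratio and the edgeR log2 fold change beside it are on different scales. Rescaling RPKM by the TMM factors lowered the siGSTO1 ratios to DMSO, from 1.32 to 1.2 for GCLC, 0.819 to 0.736 for GCLM and 1.26 to 1.13 for ME1. Alternatives included DESeq2 1.42.0, other scalings and filters. Scripts were tested on simulated data. The members and lists were chosen with earlier results of these data known. Named genes were the 9 members, GSTO1, listed pathway genes past the edgeR threshold against DMSO (up to 5 per list and comparison), the 5 genes of nearest pattern, and neighbours of a member. Lanes or dates were not used here, so no batch was examined. By genes at 1.4-fold, each compound library lay nearer DMSO culture 2, and siGSTO1 lay nearer culture 1. For C1-27 at 4 h the counts were 71 genes against culture 2 and 1125 against culture 1. For siGSTO1 they were 1999 and 1500. Whether libraries were handled together was not tested, and ratios to the DMSO mean average over 2 unlike cultures.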

Additional observations from a re-analysis of the deposited data

How the results depend on the processing

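Depth, 1 library per treatment and 1 residual degree of freedom limit all tests. IDH1, with 160 to 867 counts, had the fewest counts of the members in the DMSO and 4 h libraries. In the 24 h libraries TALDO1 had the fewest, 497 with siGSTO1 and 751 with C1-27. Of 324 alternative values of the members' edgeR log2 fold changes, 313 kept their direction and side of the threshold. With library totals only, the sign turned for GSS with siGSTO1 (0.079), PGD with C1-27 at 4 h (-0.027), TKT at 24 h against 4 h (0.075), GSS with siGSTO1 against C1-27 at 24 h (0.032) and IDH1 in that comparison (0.11); for GSS with C1-27 at 24 h it turned with DESeq2 size factors (-0.001) and the DESeq2 Wald test (-0.005). None of these was past the test, and the cause was not tested. The DESeq2 Wald test called 213, 0, 18 and 2 genes against DMSO (siGSTO1, C1-27 at 4 h and 24 h, C1-14), 5 at 24 h against 4 h and 22 for siGSTO1 against C1-27 at 24 h, where edgeR called 708, 3, 52, 20, 18 and 206; it called 0 members with C1-27 at 24 h. For C1-27 at 4 h, edgeR called 1 gene with no filter on low counts and 6 with all gene sizes, when 1 member (GCLM) passed. With library totals only, 3 members passed with C1-27 at 24 h (IDH1, GCLC and ME1). The number of genes 1.4-fold higher or lower was 1379, 205, 532 and 368 against DMSO and 1497 between DMSO cultures. Without the RPKM filter it was 7618, 4565, 5270, 4415 and 6940, and at 2-fold it was 220, 26, 67, 80 and 195. Leaving out 1 DMSO culture gave 1500 to 1999 genes with siGSTO1, 71 to 1125 with C1-27 at 4 h, 694 to 1193 with C1-27 at 24 h and 591 to 907 with C1-14, the lower value without culture 1 except for siGSTO1, where it came without culture 2. The number of members higher was 1 to 3 with siGSTO1 and 0 to 1 with C1-14, and the members' median was 0.019 to 0.318 with siGSTO1, 0.038 to 0.385 with C1-27 at 4 h, 0.504 to 0.521 with C1-27 at 24 h and -0.099 to 0.151 with C1-14. At 2-fold 1 member was higher with C1-27 at 4 h and 1 at 24 h. Without the filter 1 was higher with C1-14. With RPKM rescaled by TMM factors, 4 members were 1.4-fold higher with C1-27 at 4 h, where ME1 joined at 1.4. At 24 h 4 were, where GCLM fell to 1.39. With C1-27 at 24 h and without DMSO culture 1, the count stayed at 5, but GCLM was at 1.39 and PGD at 1.5. Of the 2 members lower in DMSO culture 2, 1 remained with a pseudocount of 0.1 RPKM, 1 with RPKM rescaled by TMM factors and 0 at 2-fold. No paired analysis was possible because the groups compared share fewer than 2 replicate numbers.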

Other observations

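On the antisense strand, GSS had 22 and 35 counts in DMSO, 57 with siGSTO1, 74 with C1-27 at 24 h, 31 with C1-27 at 4 h and 32 with C1-14, or 2.93% to 7.44% of its counts on both strands. GCLM had 65 and 73 in DMSO and 69 with C1-27 at 4 h. Antisense counts of GCLC were 0 to 4 and those of IDH1 0 to 2 in all 6 libraries. No other gene row overlapped a member. Of the nearest expressed genes on each side of the 9 members, ARHGAP29, beside GCLM, passed edgeR's test in a comparison with DMSO, with a log2 fold change of -1.14 with siGSTO1 (adjusted p = 0.0376). Beside IDH1, PIKFYVE had a log2 fold change of 0.47 with siGSTO1 and 0.44 with C1-27 at 24 h, and FZD5 had -0.03 and 0.24, none past the test.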
